A study of Mus musculus with 12 samples.

Results

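DNA replication and mitosis genes were followed in the cortex of 5-day-old mice with and without a Nestin-driven deletion of Egfr. They comprise 40 genes chosen by name, 20 that act around the G1/S transition and 20 that act in G2 and mitosis, out of 55357 annotated genes, 42419 of them detected. All 40 were found, and all 40 passed the filter on low counts in each of the 6 comparisons made here. RNA came from cortex with hippocampal formation at postnatal day 5, cut into a rostral and a caudal piece, from 3 animals per genotype and 12 libraries in all. The deleted animals carry Egfr floxed on both chromosomes with a recombinase driven by Nestin (Nestin-EgfrF/F in the protocol, NcreEGFRFF in the genotype label, called cKO here), and the controls are given as EgfrF/+ in the protocol and as WT in the genotype label. The 4 groups are cKO rostral, control rostral, cKO caudal and control caudal, with 3 libraries each, and the rostral and caudal libraries of a T number come from the same animal. Whether the controls carry the recombinase is not stated, so an effect of the recombinase or of the second floxed allele cannot be told apart from the loss of Egfr. Nestin drives expression in neural stem and progenitor cells, whose descendants inherit the deletion, while microglia and vessel cells arise from other lineages.

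The G1/S genes are the cyclin genes Ccne1 and Ccne2, the transcription factor gene E2f1, the licensing and helicase genes Cdc6, Cdt1, Cdc45, Gins2 and Mcm2 to Mcm7, the clamp gene Pcna, the nucleotide synthesis genes Rrm1, Rrm2 and Tyms, and the chromatin and histone genes Chaf1b, Uhrf1 and Slbp. The G2/M genes are the cyclin and kinase genes Ccna2, Ccnb1, Ccnb2, Cdk1, Plk1, Aurka and Aurkb, the checkpoint genes Bub1 and Bub1b, the genes of mitotic ubiquitylation Cdc20 and Ube2c, the kinetochore and passenger genes Cenpe, Cenpf and Birc5, the spindle genes Kif11, Kif20b, Tpx2 and Nusap1, and the chromosome genes Top2a and Mki67.

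A dividing cell copies its genome in S phase and separates the copies in mitosis. Transcription of the replication genes is switched on at the G1/S boundary by E2F factors once cyclin-CDK activity has inactivated RB, whereas the mitotic genes are transcribed later, under the DREAM and MYB-MuvB complexes and FOXM1, through CHR and CCAAT elements in their promoters. In the first postnatal week the dividing cells of the cortex and hippocampus are mainly glial progenitors, cells of the forming dentate gyrus, cells of the ventricular lining, microglia and vascular cells, and EGFR, a receptor tyrosine kinase, is expressed by glial and neural progenitors.

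The promoters of these genes carry the letters that distinguish both sets, which is why a few are shown. The RefSeq promoter table (build GRCm38.p6, 250 bases before to 50 after each start) held 34 of the 40 genes, 17 per set. The search covered both strands. For E2F it used the word TTGGCGC, the word TTCCCGC, the word TTGCCGC and the word TTCGCGC. For the CHR element it used the word TTTGAA and the word TTCGAA, and for the CCAAT element that word itself. The E2F words overlap each other when they face one another, as in Mcm6, where TTGGCGC on one strand and TTCGCGC on the other share bases. Shares are of genes with a promoter sequence, and a gene was counted if any of its promoters held the word. An E2F word was present in 58.8% of the G1/S genes, 17.6% of the G2/M genes and 10.9% of all 27025 genes with a promoter sequence. A CHR word was present in 17.6% of the G1/S genes, 76.5% of the G2/M genes and 21.7% of all genes. The CCAAT word was present in 64.7%, 82.4% and 41.1% of the same genes in the same order. A match describes letters only, and no E2F word was found in the window of E2f1. Each stretch runs 5′ to 3′ on the strand of its gene, from 120 bases before to 20 after the start, with the words in capitals. Ccnb2 is at chr9:70421535-70421674 (minus strand), Cdc20 at chr4:118437324-118437463 (minus), Cenpf at chr1:189688067-189688206 (minus), Kif11 at chr19:37376262-37376401 (plus), Mcm6 at chr1:128359686-128359825 (minus) and Rrm1 at chr7:102441575-102441714 (plus). The first 4 hold a CHR word close to the start, and the other pair hold E2F words.
Ccnb2: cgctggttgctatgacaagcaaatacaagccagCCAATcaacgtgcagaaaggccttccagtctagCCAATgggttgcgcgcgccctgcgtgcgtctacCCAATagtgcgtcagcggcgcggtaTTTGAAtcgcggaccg
Cdc20: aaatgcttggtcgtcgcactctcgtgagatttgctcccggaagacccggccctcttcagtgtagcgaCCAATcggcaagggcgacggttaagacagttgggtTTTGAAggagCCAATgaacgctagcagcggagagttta
Cenpf: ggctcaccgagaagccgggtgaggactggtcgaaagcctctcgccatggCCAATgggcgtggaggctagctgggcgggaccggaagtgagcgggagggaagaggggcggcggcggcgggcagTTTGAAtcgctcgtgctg
Kif11: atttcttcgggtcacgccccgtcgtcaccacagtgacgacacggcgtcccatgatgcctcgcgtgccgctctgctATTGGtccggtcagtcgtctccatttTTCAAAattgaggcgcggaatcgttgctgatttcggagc
Mcm6: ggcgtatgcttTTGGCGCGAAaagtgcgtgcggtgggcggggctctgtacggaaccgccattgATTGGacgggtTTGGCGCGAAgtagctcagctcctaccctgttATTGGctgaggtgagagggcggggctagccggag
Rrm1: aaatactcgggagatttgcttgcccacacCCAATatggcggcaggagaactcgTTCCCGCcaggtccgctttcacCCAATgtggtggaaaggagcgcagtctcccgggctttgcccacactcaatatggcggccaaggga

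Total counts ran between 43810241 and 87170063 per library. Egfr (chromosome 11, 16702203 to 16868158, plus strand, GRCm39) had 10.3, 6.39 and 12.6 CPM (TMM-scaled counts per 1000000) in cKO rostral libraries, against 41.6, 39.7 and 49.0 CPM in control rostral libraries, and 5.73, 14.7 and 9.53 CPM in cKO caudal libraries, against 45.4, 39.3 and 40.3 CPM in control caudal libraries. Its log2 fold change was -2.14 (SE 0.25) rostrally and -2.05 (SE 0.31) caudally, and yet its adjusted p was 0.186 and 0.102 in edgeR's quasi-likelihood test with Benjamini-Hochberg adjustment, so a change of this size was not called there. DESeq2 gave adjusted p of 6.34e-13 and 2.51e-12, and without T6 the rostral adjusted p was 0.0027 in edgeR's quasi-likelihood test. With both pieces of an animal summed it was called, at -2.10 (SE 0.11, and adjusted p 0.0019 by edgeR's quasi-likelihood test). The rostral library of cKO animal T6 stood apart: its median absolute log2 deviation from the other libraries of its group was 0.309, against 0.0757 to 0.191 elsewhere, and 8.18% of its counts were mitochondrial, against 1.85% to 3.98% elsewhere. Over the 2492 genes called between control caudal and control rostral libraries, E2f1 among them, each library was given a place between the mean of the control rostral libraries at 0 and that of the control caudal libraries at 1. The cKO caudal libraries of T3, T6 and T80 lay at 0.561, 1.19 and 0.801, and their rostral libraries at 0.858, -0.0716 and 0.642. The rostral library of T3 thus lay nearer the caudal end than its own caudal library, and of the cKO animals only T6 reached both ends. The control libraries set the genes and both ends of this score, so they span it by construction and are no independent yardstick. Many results that rest on the cKO libraries are therefore given also without T3 and without T6. Most values of the wider gene lists and all marker sums are not.

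All 40 genes were expressed, with at least 80 counts in every library (the minimum, of Cdc6). Levels between genes are per kilobase of all annotated exons of a gene, not of a single transcript. Over the 12 libraries, the highest mean level was that of Pcna, the sliding clamp of the replication fork, at 19.0 CPM per kb. Rrm2, the S-phase subunit of ribonucleotide reductase, followed at 9.56 CPM per kb, Mcm7 of the replicative helicase at 6.43 CPM per kb and Top2a, the topoisomerase that untangles chromosomes, at 5.58 CPM per kb. The lowest were Gins2 at 0.661 CPM per kb and Cdc6, a loader of the helicase, at 0.382 CPM per kb. The highest library of a gene exceeded its lowest by 1.30-fold for Slbp, which binds histone mRNA, up to 2.34-fold for Cdt1, a licensing factor. The control rostral library of T70 was the highest of all 12 for 16 genes, and the lowest was most often the control caudal library of T4 (15 genes) or the cKO rostral library of T6 (11 genes).

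The caudal comparison asked whether the loss of Egfr changed these genes in the caudal piece. No gene of the 40 passed the test, and 38 of 40 had a higher mean in cKO than in control caudal libraries. With an animal left out, 35 to 38 of the 40 were above 0. Of all 20705 genes tested 0.0821% were called, 17 in number, and 50.9% had a fold change above 0. The 20 G2/M genes were all above 0, with a median log2 fold change of 0.31, and 18 of the 20 G1/S genes were above 0, with a median of 0.20, against a median of 0.00 over all genes tested. At an unadjusted p under 0.05, 8 of the 40 genes were higher and none lower, 20% of them, against 7.65% of all genes that were higher at that level. In bulk tissue, more dividing cells and more RNA per dividing cell cannot be told apart.

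Among the G2/M genes, Bub1b, which encodes the checkpoint kinase BUBR1, had 11.2, 14.6 and 11.8 CPM in cKO caudal libraries of T3, T6 and T80, against 8.62, 9.78 and 10.01 CPM in control caudal libraries of T4, T8 and T70. Every cKO library lay above every control library, and T6 was the highest. Its log2 fold change was 0.42 (SE 0.12), with an adjusted p of 0.236 in edgeR's quasi-likelihood test with Benjamini-Hochberg adjustment. Tpx2, a spindle assembly factor that activates Aurora A, had 18.6, 26.1 and 20 CPM in cKO caudal libraries, against 14.5, 16.8 and 17.1 CPM in control caudal libraries. Bub1, a kinetochore kinase, had 5.47, 7.70 and 6.54 CPM in cKO caudal libraries, against 4.63, 5.08 and 5.04 CPM in control caudal libraries. Ccnb1, the cyclin of the mitotic kinase, had 7.93, 9.13 and 8.76 CPM in cKO caudal libraries, against 5.13, 6.97 and 7.54 CPM in control caudal libraries. In these 3 genes too the groups did not overlap, and their log2 fold changes were 0.43 (SE 0.13), 0.43 (SE 0.14) and 0.41 (SE 0.15), with adjusted p of 0.251, 0.263 and 0.300 in the same edgeR quasi-likelihood test. Without T3 the log2 fold changes of Bub1b, Tpx2, Bub1 and Ccnb1 were 0.48, 0.52, 0.54 and 0.45. Without T6 they were 0.29, 0.27, 0.30 and 0.36, none of them called. The proliferation marker Mki67 had 36.4, 74.8 and 48.6 CPM in cKO caudal libraries, against 37.3, 37.4 and 44.2 CPM in control caudal libraries. Its cKO library of T3 lay below all 3 controls and that of T6 far above them, so the groups overlapped.

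Among the G1/S genes, Uhrf1, which carries DNA methylation through replication, had 11.98, 15.4 and 17.9 CPM in cKO caudal libraries, against 9.99, 10.7 and 12.2 CPM in control caudal libraries. The groups overlapped in 1 library each, and the log2 fold change was 0.48 (SE 0.15, and adjusted p 0.251 by edgeR's quasi-likelihood test). Mcm7 had 29.5, 32.9 and 32.6 CPM in cKO caudal libraries, against 22.6, 26.9 and 28.8 CPM in control caudal libraries. Its groups did not overlap, and the log2 fold change was 0.29 (SE 0.10, and adjusted p 0.274 by edgeR's quasi-likelihood test). Without T3 Uhrf1 and Mcm7 were at 0.61 and 0.33, and without T6 at 0.46 and 0.26, with 0 called. Rrm1, the large subunit of ribonucleotide reductase, and E2f1 had log2 fold changes of 0.20 (SE 0.09) and 0.23 (SE 0.11) with overlapping groups. In all, 7 of the 40 genes had non-overlapping groups with cKO higher (Bub1, Bub1b, Ccnb1, Ccnb2, Tpx2, Cdc45 and Mcm7), which is 17.5%, against 10.2% of all genes, and none was lower. The 2 genes below 0 were Ccne1, the E-type cyclin, at -0.14 (SE 0.14) and Slbp at -0.07 (SE 0.09).

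The cKO animals were unequal. The cKO caudal library lay above all 3 control caudal libraries for 11 genes in T3, for 30 in T6 and for 29 in T80, which is 27.5%, 75% and 72.5% of the 40, against 30.6%, 37.3% and 32.6% of all genes. The mean log2 level of the G2/M genes against the control caudal mean stood at 0.02, 0.53 and 0.21 in T3, T6 and T80, against -0.14, 0.03 and 0.11 in control animals T4, T8 and T70. For the G1/S genes the same level was -0.02, 0.16 and 0.29 in the cKO animals, against -0.10, 0.01 and 0.10 in the controls. By Xist and Y-linked genes, T3, T4 and T8 were female and T6, T80 and T70 male, so sex was not balanced between the genotypes. Within each genotype the females had the lower levels for both sets. With sex as a covariate 0 of the 40 were called caudally, and the part of sex in these levels was not tested. Without T3 the medians were 0.27 for the G1/S and 0.43 for the G2/M genes, and without T6 they were 0.14 and 0.12, with 0 genes called either way. The smallest adjusted p of the 40 in DESeq2 was 0.0776, and DESeq2 called none of them among its 517 genes, 2.83% of all.

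**Figure D1:**
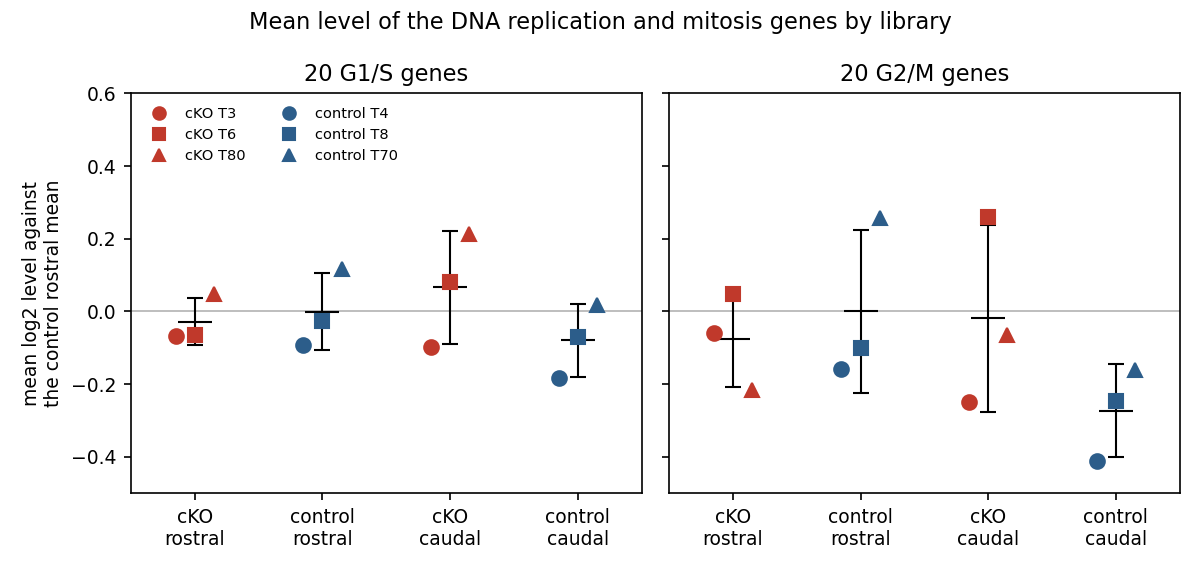
Mean log2 level of the 20 G1/S genes (left) and 20 G2/M genes (right) against the mean of the control rostral libraries, one symbol per library, with the mean and SD of each group of 3 as black bars. In the cKO caudal group T6 is the highest for the G2/M genes and T3 the lowest for both sets, and the control caudal libraries lie below the control rostral mean in the G2/M panel.

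The rostral comparison put the same question to the rostral piece, and no direction was shared by the set. No gene of the 40 was called, of 20599 tested with 0% called, and none had an unadjusted p under 0.05, against 9.49% of all genes. A fold change below 0 was seen for 25 genes and above 0 for 15, against 44.4% and 55.6% of all genes, with medians of -0.05 for the G1/S and -0.10 for the G2/M genes, against 0.04 over all genes. DESeq2 called 394 genes, 1.91% of all, and none of the 40. Without T3 the medians were -0.04 and -0.12, and without T6 they were -0.01 and -0.15, with 0 of the 40 called although 5.01% of all genes were called without T6. Without control animal T70, 21 of the 40 were above 0 and the G2/M median was 0.06, so the rostral direction rested on that library.

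In 4 of the 40 genes the groups did not overlap, all with cKO lower, which is 10%, against 10.8% of all genes that did so in that direction. Ccne1 had 3.75, 5.001 and 4.13 CPM in cKO rostral libraries, against 5.68, 5.41 and 5.597 CPM in control rostral libraries. Its log2 fold change was -0.37 (SE 0.16), with an adjusted p of 0.524 in edgeR's quasi-likelihood test. Cdc20, the activator of the anaphase-promoting complex, had 5.91, 4.85 and 5.84 CPM in cKO rostral libraries, against 6.91, 6.40 and 8.32 CPM in control rostral libraries. Its log2 fold change was -0.37 (SE 0.16, and adjusted p 0.524 by edgeR's quasi-likelihood test), and Mcm5 and Ccnb2 had -0.33 (SE 0.14) and -0.33 (SE 0.15). Chaf1b, of the histone chaperone CAF-1, and Mcm7 had 0.32 (SE 0.17) and 0.18 (SE 0.10) with overlapping groups. Ccne1 was the nearest to the threshold without T6, at -0.49 (SE 0.13) and an adjusted p of 0.0683 by edgeR's quasi-likelihood test. The lowest fold change was that of Aurkb, the kinase of the chromosomal passenger complex, at -0.40 (SE 0.19), whose groups overlapped, and the highest that of Cdt1 at 0.32 (SE 0.27), which rested on T6 with 6.26 CPM beside 3.38 and 3.49 CPM in T3 and T80. The summed level of the 20 G2/M genes in the rostral library of T6 was 336 CPM with TMM scaling and 280.5 CPM by plain library total, a larger gap than in any other library of that list.

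**Figure D2:**
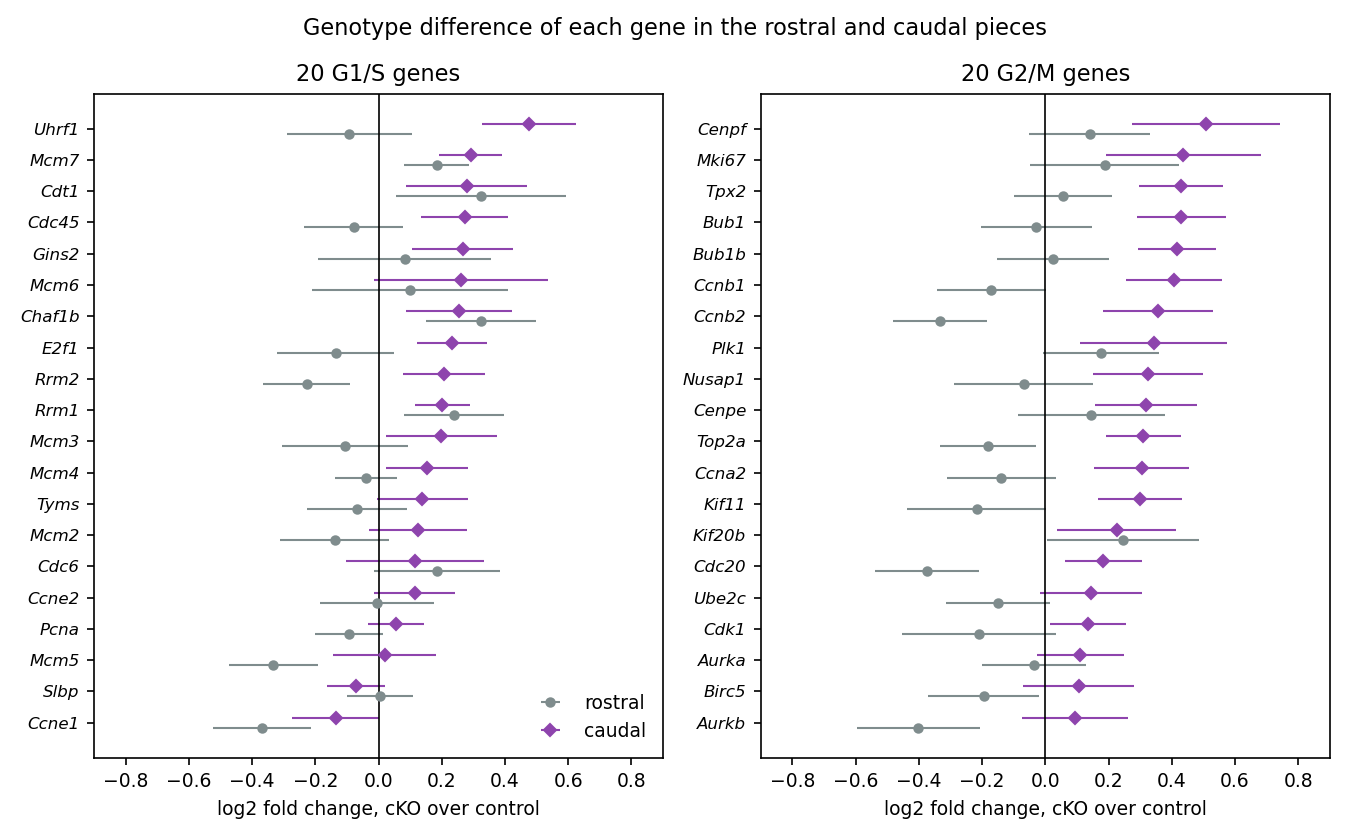
Log2 fold change of cKO over control for each gene in the caudal (diamonds) and rostral (circles) pieces, with bars of 1 SE from edgeR, sorted by the caudal value. Caudal values lie above 0 for 38 of 40 genes, rostral values for 15 of 40.

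When the rostral and caudal counts of each animal were summed, 0 of the 40 genes passed the test, with 0.179% of 22924 genes called, and 30 of the 40 were above 0, against 53% of all genes. The medians were 0.05 for the G1/S and 0.10 for the G2/M genes, against 0.02 over all genes. Without T3 they were 0.13 and 0.11 with 31 genes above 0, and without T6 they were 0.07 and -0.01 with 24 above 0. The G2/M median was -0.02 with 20 genes above 0 without control animal T4, and 0.24 with 33 above 0 without T70, so its sign and size depended on single animals. Mcm7 at 0.23 (SE 0.09) was the only one of the 40 whose summed levels were higher in all 3 cKO animals than in all 3 controls, and Ccne1 at -0.27 (SE 0.10) and Cdc20 at -0.10 (SE 0.10) were lower in the same sense. These 3 are 7.5% of the 40, against 26% of all genes. The adjusted p of Mcm7 was 0.297 and that of Ccne1 0.296 in edgeR's quasi-likelihood test, both with an unadjusted p under 0.05, against 15.4% of all genes at that level, and DESeq2 called 0 of the 40. The caudal, rostral and summed comparisons use the same libraries and do not add to each other.

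The regional comparison in control animals asked whether the caudal and rostral pieces differ in these genes. All 20 G2/M genes had a lower mean in the caudal libraries, with a median log2 fold change of -0.32 (caudal over rostral), and 15 of 20 G1/S genes had a lower mean, with a median of -0.06. Over all genes the median was 0.00 and 49.1% were below 0. Of the 40 genes 1 was called, E2f1, the activator E2F of the G1/S boundary, which is 2.5% of the 40, against 5.88% of all 20461 genes called lower. At an unadjusted p under 0.05, 14 of the 40 genes were lower and 0 higher, 35% of them, against 12.5% of all genes that were lower at that level.

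E2f1 had 10.6, 10.5 and 10.1 CPM in control caudal libraries of T4, T8 and T70, against 14.98, 16.2 and 13.5 CPM in the control rostral libraries of the same animals. The caudal level was lower in each animal and the groups lay far apart. The log2 fold change was -0.53 (SE 0.08), with an adjusted p of 0.0024 in edgeR's quasi-likelihood test with Benjamini-Hochberg adjustment, and it was called in all 10 alternatives run for this comparison.

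With the animal as a block, 11 of the 40 genes were called lower and none higher, which is 27.5%, against 7.06% of all genes called lower in that fit. They were the replication genes E2f1, Rrm2 and Uhrf1 and the mitotic genes Mki67, Top2a, Ccnb1, Ccna2, Cenpe, Cenpf, Tpx2 and Ube2c. Mki67 had 37.3, 37.4 and 44.2 CPM in control caudal libraries, against 45.9, 47.1 and 69.2 CPM in control rostral libraries. The groups did not overlap, and its log2 fold change was -0.43 (SE 0.07, adjusted p 0.0025) with the block and -0.46 (SE 0.18, adjusted p 0.178) without it in edgeR's quasi-likelihood test. Top2a had 39.2, 44.2 and 46.0 CPM in control caudal libraries, against 48.4, 50.1 and 68.9 CPM in control rostral libraries. T70 was the highest animal in both pieces, and caudal over rostral came to -0.36 on the log2 scale (SE 0.07, adjusted p 0.0092) with the block and -0.38 (SE 0.14, adjusted p 0.149) without it in edgeR's quasi-likelihood test. Cenpe, a kinetochore motor, and Tpx2 came nearest to the threshold without the block, at -0.33 (SE 0.10, adjusted p 0.0548) and -0.31 (SE 0.10, adjusted p 0.062) in edgeR's quasi-likelihood test. DESeq2 without the block called 5 genes (E2f1, Cenpe, Cenpf, Top2a and Tpx2), 12.5% of the 40, against 6.93% of all genes it called lower.

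In 10 of the 40 genes every control caudal library lay below every control rostral one, which is 25%, against 14.4% of all genes, and in Cdc6 and Gins2 every caudal library lay above, which is 5%, against 16.9% of all genes. Gins2, a subunit of the helicase cofactor GINS, had 2.68, 2.73 and 2.72 CPM in control caudal libraries, against 2.48, 2.25 and 2.42 CPM in control rostral libraries. Of its exon bases, 67.3% overlap Gse1 on the opposite strand in the annotation of the deposited counts. The other licensing, helicase and fork genes overlapped between the pieces except Cdc45, a helicase cofactor, which had 3.19, 4.15 and 3.88 CPM in control caudal libraries, against 4.31, 4.43 and 4.97 CPM in control rostral libraries, a log2 fold change of -0.30 (SE 0.13). Those that overlapped ran between -0.20 (SE 0.13) for Cdt1 and 0.05 (SE 0.46) for Mcm6, with -0.18 (SE 0.09) for Mcm5 and 0.00 (SE 0.06) for Pcna.

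In the cKO animals no gene of the 40 was called between the caudal and rostral pieces, with 0% of 20944 genes called, and 1.66% of all genes against 0 of the 40 had an unadjusted p under 0.05. DESeq2 called 0 of the 40. Above 0 were 28 genes, against 45.7% of all genes, with medians of 0.12 for the G1/S and 0.08 for the G2/M genes, against -0.02 over all genes. Cdc20 and Ccnb2, a B-type cyclin, were the genes whose groups did not overlap, both with caudal higher, which is 5% of the 40, against 2.61% of all genes. Without T3 the medians were 0.14 and 0.20, and without T6 they were 0.07 and -0.01. Cdc20 was at 0.37 (SE 0.18) over all cKO animals, at 0.49 (SE 0.27) without T3 and at 0.18 (SE 0.14) without T6.

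**Figure D3:**
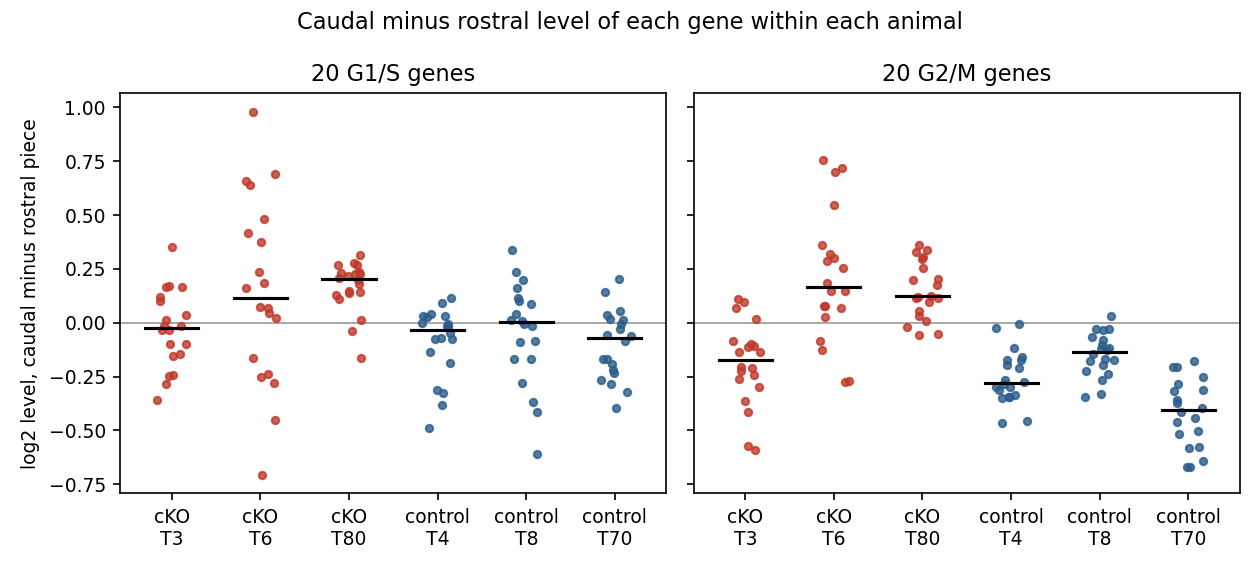
Caudal minus rostral log2 level (log2 of CPM plus 0.5) of each of the 20 G1/S genes (left) and 20 G2/M genes (right) within each animal, one point per gene, with the median as a black line. The G2/M genes lie below 0 in 20, 19 and 20 of 20 cases in control animals T4, T8 and T70, and in 16, 4 and 3 of 20 in cKO animals T3, T6 and T80.

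Within single animals the G2/M genes were lower caudally for 16 of 20 in cKO animal T3, for 4 in T6 and for 3 in T80, against 20, 19 and 20 in control animals T4, T8 and T70. Over all genes tested this share was 52.5%, 50.8% and 49.9% in the cKO animals, against 48.2%, 47.6% and 48.6% in the controls. The median caudal minus rostral log2 level of the G2/M genes was -0.17, 0.16 and 0.12 in T3, T6 and T80, against -0.28, -0.14 and -0.41 in T4, T8 and T70. The G1/S genes had medians of -0.03, 0.12 and 0.20 in the cKO animals, against -0.04, 0.00 and -0.07 in the controls. For the G2/M genes T3 lay within the range of the controls, and T6 and T80 lay above it. On the region score the order of the pieces was turned round in T3, and T6 reached both ends, as controls do by construction. The part of the cut along the rostral to caudal axis in these values was not tested.

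The interaction asked whether the genotype difference was larger caudally than rostrally. None of the 40 genes passed, with 0% of 21599 genes called by edgeR's quasi-likelihood test and 0 of the 40 by DESeq2, whereas 34 of 40 were above 0, against 44.4% of all genes. The median was 0.19 for the G1/S and 0.39 for the G2/M genes, against -0.03 over all genes. With an animal left out, the G1/S median ran between 0.14 and 0.24 and the G2/M median between 0.29 and 0.49. In the same fits 33 to 37 of the 40 were above 0. At an unadjusted p under 0.05, 6 of the 40 genes were above 0, which is 15%, against 1.25% of all genes, namely Ccnb2, Cdc20, Ccnb1, Top2a, Uhrf1 and Rrm2. This contrast uses the libraries of both genotype comparisons and of both region comparisons. Its fit had no term for the animal, although both pieces of an animal enter it. With the animal as a block, 0 of the 40 were called, with medians of 0.20 for the G1/S and 0.37 for the G2/M genes. The 40 genes are not independent of each other, so such shares describe them and are not a test.

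Ccnb2 had 3.99, 6.24 and 4.42 CPM in cKO caudal libraries, against 3.67, 3.92 and 3.94 CPM in control caudal libraries. In the rostral piece it had 3.78, 3.60 and 3.86 CPM in cKO libraries, against 4.57, 4.40 and 5.24 CPM in control libraries. Every caudal cKO library lay above every caudal control and every rostral cKO library below every rostral control. The interaction was 0.69 (SE 0.23, with unadjusted p 0.0107 and adjusted p 0.9997 by edgeR's quasi-likelihood test), 0.82 (SE 0.24) without T3 and 0.46 (SE 0.17) without T6. Cdc20 had an interaction of 0.56 (SE 0.20), 0.68 (SE 0.22) without T3 and 0.37 (SE 0.17) without T6. Ccnb1 had 0.58 (SE 0.24), 0.73 (SE 0.27) without T3 and 0.53 (SE 0.26) without T6.

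E2f1 had 13.1, 10.5 and 12.8 CPM in cKO caudal libraries, against 10.6, 10.5 and 10.1 CPM in control caudal libraries. In the rostral piece it had 11.6, 17.4 and 11.5 CPM in cKO libraries, against 14.98, 16.2 and 13.5 CPM in control libraries. Only T6 of the cKO animals had less E2f1 caudally than rostrally. T6 was also the only one whose libraries spanned the region score, at 1.19 and -0.0716, and E2f1 is itself among the genes of that score. In T3 and T80 both pieces lay between the control levels of the 2 pieces, as did their region scores. Its interaction was 0.37 (SE 0.23) over all libraries and 0.21 (SE 0.25) without T3. Without T6 it was 0.70 (SE 0.13, and adjusted p 0.0186 by edgeR's quasi-likelihood test), in a fit that called 2.17% of all genes. With limma voom and library weights it was 0.65 (adjusted p 0.0453), with 0.69% of all genes called. With the animal as a block and T6 left out, 3.36% of all genes were called, and of the 40 these were E2f1 at 0.69 and Rrm2 at 0.45. The part of the cut along the rostral to caudal axis in these values was not tested.

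**Figure D4:**
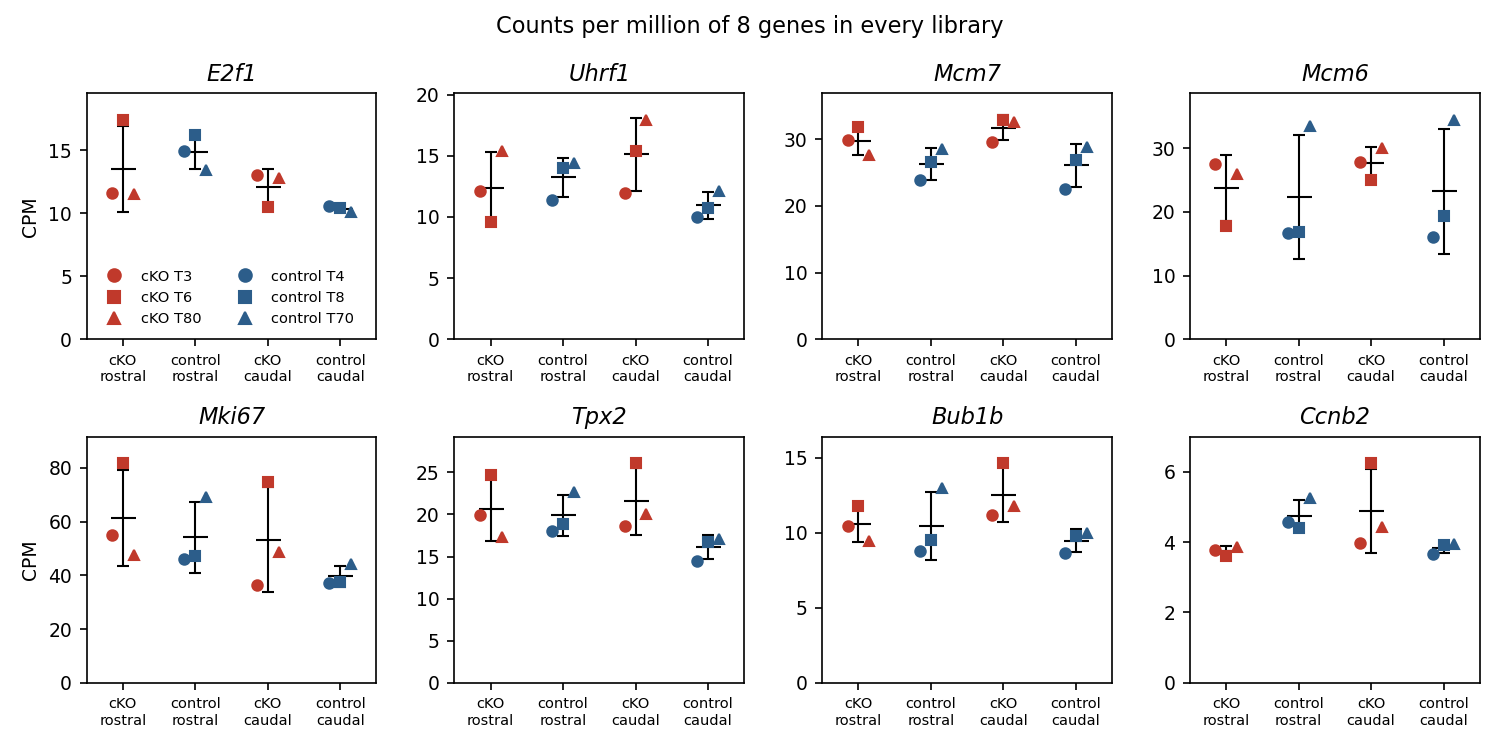
CPM of 8 genes in every library, one symbol per animal, with the mean and SD of each group of 3 as black bars and axes that start at 0. E2f1 is lower in all control caudal than in all control rostral libraries, Ccnb2 in cKO lies above all controls caudally and below them rostrally, and Mcm6 is highest in T70 in both pieces.

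Mcm6, a subunit of the MCM2-7 helicase ring, varied more between animals than the other subunits did. It had 27.8, 25.03 and 30.1 CPM in cKO caudal libraries and 27.5, 17.8 and 26.0 CPM in cKO rostral libraries of T3, T6 and T80. In control animals T4, T8 and T70 it had 16.04, 19.3 and 34.4 CPM caudally and 16.6, 16.8 and 33.6 CPM rostrally. T70 was the highest animal in both pieces, T4 the lowest, and the mean per animal spanned 2.08-fold, against 1.22-fold to 1.41-fold for Mcm2, Mcm3, Mcm4, Mcm5 and Mcm7. No genotype difference of Mcm6 exceeded its error, at 0.26 (SE 0.28) caudally and 0.10 (SE 0.31) rostrally.

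The wider pathway was counted in the same fits. Of 48 other mitosis genes, 44 were above 0 in the caudal genotype comparison, with a median of 0.26 and 0 called, and the smallest p were those of Smc2 of condensin at 0.29 (SE 0.07), the kinase gene Pbk at 0.39 (SE 0.10) and the spindle pole gene Aspm at 0.47 (SE 0.13). Of 40 other replication genes, 33 were above 0, with a median of 0.11 and 0 called, and the smallest p was that of Hells, a chromatin remodeller, at 0.49 (SE 0.11, and adjusted p 0.171 by edgeR's quasi-likelihood test). Hells, Pbk and Smc2 were called by DESeq2, with adjusted p of 0.0143, 0.0304 and 0.0409. That is 2.5% of the other replication and 4.17% of the other mitosis genes, against 2.83% of all genes DESeq2 called. Of 18 cell cycle transcription factors, 13 were above 0 and 0 called, and of 14 tested cyclin D, CDK and CDK inhibitor genes, 9 were above 0 and 0 called. Ccnd2, a D-type cyclin of progenitors, had 295, 356 and 324 CPM in cKO caudal libraries, against 235, 238 and 238.5 CPM in control caudal libraries. The groups did not overlap, and its log2 fold change was 0.46 (SE 0.07), with an adjusted p of 0.078 in edgeR's quasi-likelihood test and 6.49e-05 in DESeq2.

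In the rostral genotype comparison none of these genes was called, with medians of -0.06 for the other mitosis and -0.02 for the other replication genes. Cdkn1c, which encodes the CDK inhibitor p57, had 19.5, 13.8 and 25.7 CPM in cKO rostral libraries, against 9.08, 8.15 and 9.59 CPM in control rostral libraries. Its groups did not overlap, and the log2 fold change was 1.15 (SE 0.23), with an adjusted p of 0.312 in edgeR's quasi-likelihood test, 0.0054 without T6 and 0.00084 in DESeq2. Without T6, 4 of the 14 genes of its list were called by edgeR, against 5.01% of all genes. These were Cdkn1c, Btg2 at 0.66 (SE 0.14) and Ccnd3 at 0.36 (SE 0.07), all higher in cKO, and Cdk6 at -0.30 (SE 0.07), lower in cKO. In that fit the cKO rostral libraries were T3 and T80, at 0.858 and 0.642 on the region score. Cdkn1c and Btg2 were also called higher, and Cdk6 lower, in control caudal than in control rostral libraries. The part of the cut along the rostral to caudal axis in these calls was not tested. In control animals Cdkn1c was the strongest regional gene of these lists, at 23.8, 23.2 and 25.2 CPM caudally, against 9.08, 8.15 and 9.59 CPM rostrally. Its log2 fold change was 1.42 (SE 0.08, and adjusted p 6.9e-06 by edgeR's quasi-likelihood test). In cKO animals it had 12.02, 25.2 and 18.6 CPM caudally, against 19.5, 13.8 and 25.7 CPM rostrally, and only T6 had more caudally. On the region score, whose genes include Cdkn1c, T80 as well as T6 lay higher caudally than rostrally.

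Between the control pieces, 46 of the 48 other mitosis genes had a lower caudal mean, with a median of -0.24 and 5 called lower, 10.4% of them, against 5.88% of all genes called lower and 6.3% called higher. The 3 with the smallest p were Mad2l1 of the spindle checkpoint at -0.31 (SE 0.08), the midzone kinesin gene Kif23 at -0.39 (SE 0.10) and Kif15 at -0.51 (SE 0.14). Foxm1, the transcription factor of mitotic genes, was the only one called of the 18 factors, at -0.42 (SE 0.11, and adjusted p 0.0269 by edgeR's quasi-likelihood test). Of the other replication genes 27 of 40 had a lower caudal mean, with a median of -0.10, and Rpa1, of the single-strand binding protein, was the one called, higher at 0.29 (SE 0.06). Of the cyclin D, CDK and inhibitor genes, Cdk6 at -0.49 (SE 0.05) and Ccnd2 at -0.24 (SE 0.07) were called lower, and Cdkn1c and the antiproliferative gene Btg2 at 0.56 (SE 0.11) were called higher.

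Summed levels of cell type markers are given beside these results, with no test of the sums. Counts of markers above or below 0 are from the caudal genotype comparison, where 50.9% of all genes were above 0. The summed level of 10 intermediate progenitor and dentate markers was 2060 to 2155 CPM in cKO caudal libraries, against 1659 to 1800 CPM in control caudal libraries, with 9 of 9 tested genes above 0 and 0 called, and in the rostral piece it was 1931 to 2619 CPM in cKO libraries, against 1707 to 1935 CPM in control libraries. Most of that sum is Dcx, and Neurog1 was at 0 in some libraries. Eomes, the defining marker of intermediate progenitors, named after its values were seen, had 9.26, 16.8 and 12.03 CPM in cKO caudal libraries, against 1.90, 4.56 and 4.50 CPM in control caudal libraries. The 10 oligodendrocyte precursor markers summed to 706 to 733 CPM in cKO caudal libraries, against 829 to 912 CPM in control caudal libraries. Of these markers 8 of 10 were below 0 and 1 was called lower, against 0.0821% of all genes called. The 10 radial glia and neural stem markers summed to 1641, 2508 and 1974 CPM in cKO caudal libraries of T3, T6 and T80, against 2434, 2255 and 2131 CPM in control caudal libraries, with 7 of 10 above 0 and 0 called. Most of the radial glia sum is Ptprz1 and Fabp7. Of the cKO caudal libraries, T3 had the lowest sum of these 10 markers and of the G2/M genes, and T6 the highest of both. The astrocyte markers had the same lowest and highest library, at 2052 CPM in T3 and 2780 CPM in T6, against 2423 to 2760 CPM in control caudal libraries. Microglia markers, 6 of 8 above 0 with 0 called, summed to 156 to 179 CPM in cKO caudal libraries, against 129 to 165 CPM in control caudal libraries. Pericyte and smooth muscle markers, 7 of 7 above 0 with 0 called, summed to 240 to 368 CPM in cKO caudal libraries, against 212 to 283 CPM in control caudal libraries. Endothelial markers, 4 of 8 above 0, summed to 210 to 314 CPM in cKO caudal libraries, against 263.5 to 306 CPM in control caudal libraries. Choroid plexus markers, 7 of 7 above 0 with 0 called, summed to 223, 551 and 159 CPM in cKO caudal libraries of T3, T6 and T80, against 185, 10.8 and 216 CPM in control caudal libraries of T4, T8 and T70. In the rostral piece they summed to 394, 1.18 and 13.7 CPM in cKO libraries, against 5.52, 3.33 and 4.81 CPM in control libraries. The caudal library of T6 had the highest sum of the 12 and its rostral library the lowest, and rostral T3 lay above all control libraries of either piece. In the rostral piece, the oligodendrocyte precursor sum was 631 to 788 CPM in cKO libraries, against 946 to 992 CPM in control libraries, and the astrocyte sum was 925 to 2361 CPM in cKO libraries, lowest in T6, against 2158 to 2423 CPM in control libraries. No marker of the precursor, glial, microglial, vascular and choroid plexus lists was at 0 in any library, and the part of these cell types in the values of the 40 genes was not tested.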

How the data were processed

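RNA was measured by sequencing of captured mRNA in 12 libraries, 3 per group. Per the submitters' processing notes, STAR 2.7.8a, featureCounts 2.0.3 and build GRCm39 were used for alignment, counting and the reference; their settings, strand and multi-mapping rules are not stated there. The authors deposited expected counts per gene, that is, counts that need not be whole, in 1 table per library. Of all values of a library, zeros included, 9.69% to 14.3% were fractional, and all were rounded before testing. Comparisons used edgeR 4.0.16 (quasi-likelihood, robust, TMM, filterByExpr) in R 4.3.3 on the libraries of that comparison only, with Benjamini-Hochberg adjustment over all genes tested and a threshold of 0.05. DESeq2 1.42.0, limma 3.58.1 with voom weights, other scalings and filters, sex read from Xist and Y-linked genes, and left-out animals were alternatives. CPM values are TMM-scaled counts per 1000000 over all 12 libraries and are levels; fold changes are edgeR's. The code was tested on simulated data.

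The full statistics go to Egfr, to the genes with the smallest p in each set and comparison, and to up to 3 genes of each other pathway list. The members, lists and rules were chosen with earlier results of these data known. Rostral and caudal libraries of a T number share an animal, per the titles in the labels; their deviations from group means correlated at 0.35, 0.363 and 0.392 in controls T4, T8 and T70, and at -0.0123, 0.00457 and 0.541 in cKO T3, T6 and T80. Each of 3 animals per group is a biological replicate; whether they were littermates is not stated. Exons of 11 of the 40 genes overlap another gene, 10 of them on the opposite strand (annotation of the deposited counts, GRCm39), and 4 by more than 10% of their length (Gins2, Ube2c, Ccne2, Ccna2).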

Additional observations from a re-analysis of the deposited data

Results flagged for a closer look

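The values of Ccnb2 lay in opposite directions in the pieces. Its log2 fold change of cKO over control was opposite in every library of both pieces, with an interaction of 0.69 (SE 0.23), an unadjusted p of 0.0107 and an adjusted p of 0.9997 in edgeR's quasi-likelihood test. Its log2 fold change of caudal over rostral was 0.39 (SE 0.22) in cKO animals, where every caudal library lay above every rostral one, against -0.31 (SE 0.11) in control animals, where every caudal library lay below every rostral one. The first and the second share their libraries, and the adjusted test of the difference did not pass. Without T6 the interaction was 0.46 (SE 0.17), and the caudal over rostral value in cKO was 0.15 (SE 0.16). The margins of separation were small. The cKO caudal library of T3 had 3.99 CPM (183 counts), against 3.94 CPM in control caudal T70 and 3.86 CPM in cKO rostral T80. T3 is also the animal whose pieces were turned round on the region score.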

How the results depend on the processing

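Of 308 recomputed values for 24 summary results, all counts or medians, 297 stayed within 1.5 times of the count or 1 SD of the median. Sign was not part of that rule. With an animal left out, the rostral G2/M median of the genotype comparison went from -0.10 to as high as 0.06. The summed one went from 0.10 to as low as -0.02, and that of the cKO region comparison from 0.08 to as low as -0.01. Each counted as unchanged. Among Egfr and the genes with the smallest p, none changed sign where either fit called it. In the control region comparison, 1 gene of the 40 was called in the analysis as reported, 5 with DESeq2, 11 with the animal as a replicate block and 12 with no filter on low counts, and 10 instead of 5 genes were above 0 with limma voom and library weights. With an animal left out, 1 to 2 were called (2 without T70, E2f1 and Mki67), 3 to 8 were above 0 (3 without T8 and 8 without T70), and the G2/M median ran between -0.38 and -0.21. The interaction called 1 gene, E2f1, with limma voom and library weights and 0 to 1 with an animal left out (1 without T6); with the animal as a replicate block and T6 left out, an alternative added after seeing the data, 2 were called, E2f1 at 0.69 and Rrm2 at 0.45. The block alone called 0 in the interaction and 0 in the cKO region comparison. The caudal G2/M median of the genotype comparison ran between 0.12 (without T6) and 0.43 (without T3) with an animal left out, the rostral one between -0.17 and 0.06, and the summed one between -0.02 and 0.24. In both genotype comparisons 0 of the 40 were called under every alternative run. RLE and upper-quartile scaling gave 38 genes above 0 caudally, 15 rostrally and 34 in the interaction, as TMM did. The cause of these shifts was not tested.

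Egfr missed the adjusted threshold by edgeR in the rostral and the caudal genotype comparison and passed it with the pieces summed, so a count of 0 within a piece does not show that the 40 genes did not differ. For genes of low count, such as Cdc6 with 80 counts in its lowest library, counting error limits the precision as well.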
